A study of Saccharomyces cerevisiae with 78 samples.

Results

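The zinc response genes described here are 10 genes of budding yeast that take up, store or answer to zinc, followed across 25 fusion-gene clones and an empty-plasmid control. They were chosen by locus tag and make up 10 of the 5229 gene rows of each count file. They are ZRT1 (YGL255W), ZRT2 (YLR130C), ZRT3 (YKL175W), ZRC1 (YMR243C), ZAP1 (YJL056C), ADH4 (YGL256W), ZPS1 (YOL154W), IZH1 (YDR492W), IZH2 (YOL002C) and IZH4 (YOL101C). The set was proposed from earlier results of the same data, in which zinc genes were higher in clone M490-F09 and ADH4 was higher in clone M490-A12. These 2 clones are therefore described with values and no test, and tests are given for the other 23 clones.

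Yeast cells hold their zinc within a narrow range mainly through transcription. The activator Zap1 loses activity when zinc binds it, so in zinc shortage it switches on genes whose promoters carry a zinc-responsive element, among them the plasma membrane importers, the vacuolar exporter and its own gene. In zinc shortage cells also turn to proteins that need less of the metal and mobilise vacuolar stores, whereas in plenty the vacuole takes the surplus.

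Each clone group consisted of haploid BY4742 cells (alpha mating type) carrying a plasmid with one combinatorial fusion gene, and the control group of the same strain carrying the empty plasmid. In such bulk cultures a change in every cell and a larger change in some cells cannot be told apart. All 26 groups were grown in galactose medium lacking uracil to mid-logarithmic phase, and no group was given a zinc treatment by the labels. Each group had 3 libraries labelled as biological replicates, and poly(A) RNA was sequenced. By their library names, replicates 1 and 2 belong to a first set and replicate 3 to a resubmitted set. The labels do not name the genes joined in each construct, so construct and genome copies cannot be told apart for a gene that is part of one.

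Library totals ran between 10773809 and 18981572 counts, with a median of 14019225. The design text speaks of 22 clones and the labels hold 25. Replicates 1 and 2 of M492-E01 have library names that point to a different clone (M585-B08), and control replicate 3 has one with PP2061. The alpha-cell genes MF(ALPHA)1 and STE3 averaged 652 and 247 CPM, that is counts per 1e6 normalised counts, in the control, against 19.5 CPM for STE2 and 10.9 CPM for BAR1, which are genes of a cells and were not at 0. All 3 control libraries enter every comparison with the control, so those comparisons are not independent of each other.

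Upstream sequences of the 10 genes were searched for the zinc-responsive element, whose published consensus, ACCTT and AAGGT with 1 free base between them, was itself derived from genes of this kind. The motif reads the same on both strands, and the window was the 500 bases before each start codon in RefSeq's R64 assembly. With at most 1 mismatch allowed, 7 of the 10 genes held a match, against 1.967% of 6000 windows of protein-coding genes, and ZRT1 held one without a mismatch, as did 0.15% of windows. The matches are shown because Zap1 is known to act through such elements. Each is printed on the gene's own strand, 5′ to 3′, with the 11 bases of the match in capitals and 8 flanking bases on each side.
ZRT1, chrVII:20774-20784, plus strand, 193 bases before the start codon, no mismatch: catatttgACCTTGAAGGTcatggaaa
ZRT1, chrVII:20659-20669, plus strand, 308 bases before, 1 mismatch: ccaaagatACCCTCAAGGTtctcatct
ZRT2, chrXII:404314-404324, minus strand, 251 bases before, 1 mismatch: ttttcacaACCTTTAGGGTacattgcc
ZRT2, chrXII:404363-404373, minus strand, 300 bases before, 1 mismatch: gggacataACCCTAAAGGTtatatgcg
ZRT3, chrXI:118638-118648, plus strand, 144 bases before, 1 mismatch: tgacaacaACCTTAAGGGTaatggact
ZRC1, chrXIII:756330-756340, minus strand, 163 bases before, 1 mismatch: ttcagatgGCCTTGAAGGTgaggaatg
ZAP1, chrX:333207-333217, minus strand, 133 bases before, 1 mismatch: agtcatctACCCTAAAGGTcatgatga
ZPS1, chrXV:34329-34339, plus strand, 318 bases before, 1 mismatch: tataattgACCTTCAGGGTtaggaccc
ZPS1, chrXV:34344-34354, plus strand, 303 bases before, 1 mismatch: gggttaggACCCTGAAGGTtttttgta
IZH1, chrIV:1434507-1434517, plus strand, 406 bases before, 1 mismatch: atcatgcaACCTTTAGGGTccaagccc

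These letters were not found in the windows of ADH4, IZH2 and IZH4, which says nothing about what binds there. The match of ZAP1 lies between it and LOG1, a divergent neighbour whose start codon is 283 bases away, so the same bases are upstream of both. ZRT1, ZRT2 and ZPS1 held 2 matches each, and in ZPS1 the pair stood closest together, as the map of matches shows. A match is a description of the sequence and was not related to binding in these data.

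**Figure D1:**
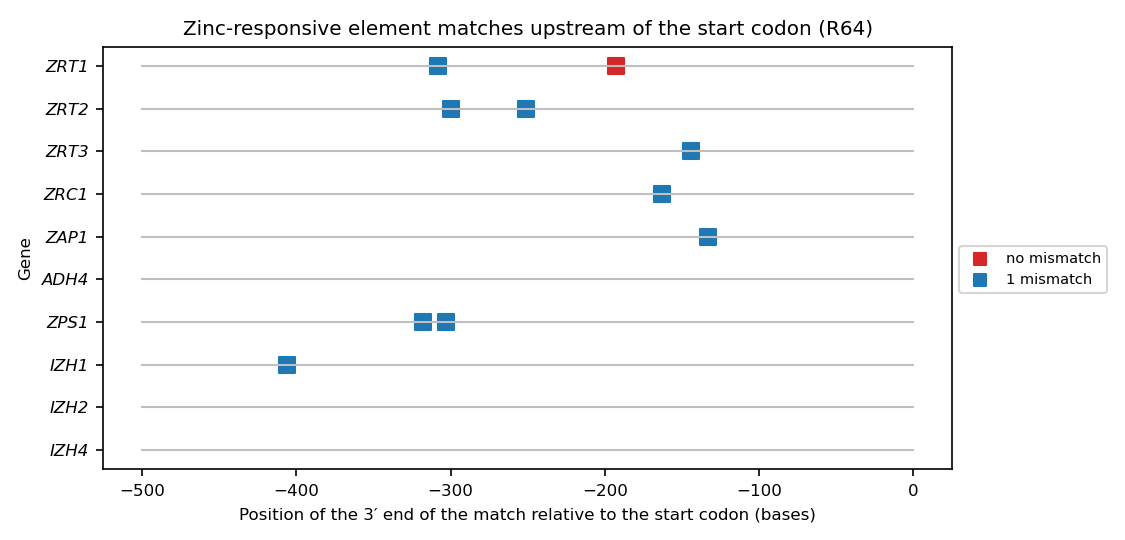
Matches to the zinc-responsive element (squares) in the 500 bases before the start codon of each gene; the horizontal axis gives the distance of the 3′ end of the match from the start codon in bases. The match without a mismatch lies 193 bases before the start codon of ZRT1, and the rows of ADH4, IZH2 and IZH4 are empty.

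In the control, per kilobase of coding length, the importer gene ZRT1 had the highest level of the set at 438.5 CPM per kb, followed by ZRT2 at 176.8 and ZRC1 at 172.7. ZRT3 followed at 122, IZH2 at 83.0, IZH1 at 72.5 and ADH4 at 69.1 CPM per kb. The lowest levels were those of ZPS1 at 31.3, IZH4 at 29.0 and ZAP1 at 27.0 CPM per kb. The fewest reads behind any value were 79 counts, for IZH4, and all 10 genes passed the filter on low counts. The control ranked among the 9 highest of the 26 groups for 8 genes, the exceptions being ADH4 (rank 15) and ZPS1 (rank 18). With the groups in order of their means, the libraries of neighbouring groups failed to overlap in 2 places for ZRT1 and ZRT3, in 1 place for ZRC1, ADH4 and ZPS1, and nowhere for the other genes.

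In M490-F09 the levels of 6 genes were the highest of all 26 groups, and ADH4 and ZPS1 stood furthest from the control. ADH4, which encodes an alcohol dehydrogenase isozyme known to be made in zinc shortage, had 906.4, 662.5 and 718.4 CPM in M490-F09, against 78.08, 79.89 and 80.07 CPM in the control. Its mean was 762 ± 128 CPM in the clone and 79.35 ± 1.10 CPM in the control (SD, 3 libraries per group), a 9.65-fold difference and 3.27 on the log2 scale. Every library of the clone was far above every control library, in both library sets, and the log2 difference within the resubmitted set was 3.16 and within the first set 3.29.

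ZPS1, which encodes a cell wall protein raised in zinc shortage, had 147.8, 104.7 and 164.9 CPM in M490-F09, against 23.53, 21.57 and 25.22 CPM in the control. This was a 5.89-fold difference (log2 2.56), and no library of any other group reached the lowest of these 3 values. In the 24 groups without M490-F09 and M490-A12, the libraries lay between 15.7 and 42.25 CPM for ZPS1 and between 60.74 and 206.5 CPM for ADH4.

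ZRT1, the high-affinity zinc importer of the plasma membrane, had 1161, 1021 and 985.7 CPM in M490-F09, against 536.4, 522.6 and 428.7 CPM in the control, which is 2.12-fold (log2 1.09). ZAP1, the activator itself, had 150.9, 134.4 and 118.2 CPM in the clone, against 77.74, 83.52 and 52.48 CPM in the control (log2 0.92). For both genes the clone's 3 libraries lay above all control libraries in either set, and ADH4 and ZPS1 stood apart by more than the transporter genes did. ZRT3, which carries zinc out of the vacuole, averaged 231 ± 22.9 CPM in M490-F09 and 184 ± 17.1 CPM in the control (SD, n = 3 each), without overlap, but its log2 difference was 0.07 within the resubmitted set and 0.45 within the first one. ZRT2, the low-affinity importer, averaged 269.5 ± 28.8 CPM in M490-F09 and 224.4 ± 39.5 CPM in the control, and its libraries overlapped.

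The remaining 4 genes lay below the control in M490-F09. ZRC1, which loads zinc into the vacuole, averaged 196 ± 6.23 CPM in the clone, against 229.5 ± 21.0 CPM in the control. IZH1, IZH2 and IZH4 encode membrane proteins of one family linked to zinc homeostasis, and their log2 differences were -0.65, -0.27 and -0.85. For these 4 genes no library of the clone reached the lowest control library. Their differences were larger in the resubmitted set: IZH4 differed by -1.80 within the resubmitted set and by -0.47 within the first one, and IZH1 by -1.28 within the resubmitted set and by -0.32 within the first one. In all, 5 members lay above and 4 below all control libraries in M490-F09, beside 10.2% and 6.91% of all genes; the set was proposed from this clone, so nothing is read from those counts.

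M490-A12 also had ADH4 and ZPS1 above the control, at lower levels than M490-F09, and did not have the high importer level. Its libraries did not overlap those of M490-F09 for either gene. They overlapped those of the next group, M491-C03 for ADH4 and M495-F02 for ZPS1. ADH4 had 140.7, 155.2 and 282.7 CPM in M490-A12, against 78.08 to 80.07 CPM in the control (log2 1.25). ZPS1 had 32.37, 37.16 and 64.39 CPM, against 21.57 to 25.22 CPM in the control (log2 0.89). Replicate 3 was the highest of the clone's libraries for both genes, and the log2 difference of ADH4 was 1.82 within the resubmitted set and 0.90 within the first one.

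ZRT1 in M490-A12 had 469.4, 502.8 and 574.3 CPM, which overlapped the control, and its log2 difference was 0.04. ZRC1 and IZH2 lay below all control libraries, with log2 differences of -0.25 and -0.22. In all, 2 members lay above and 2 below all control libraries in M490-A12, beside 11.5% and 8.31% of all genes. The set was proposed with the high ADH4 of this clone known, so nothing is read from those counts.

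**Figure D2:**
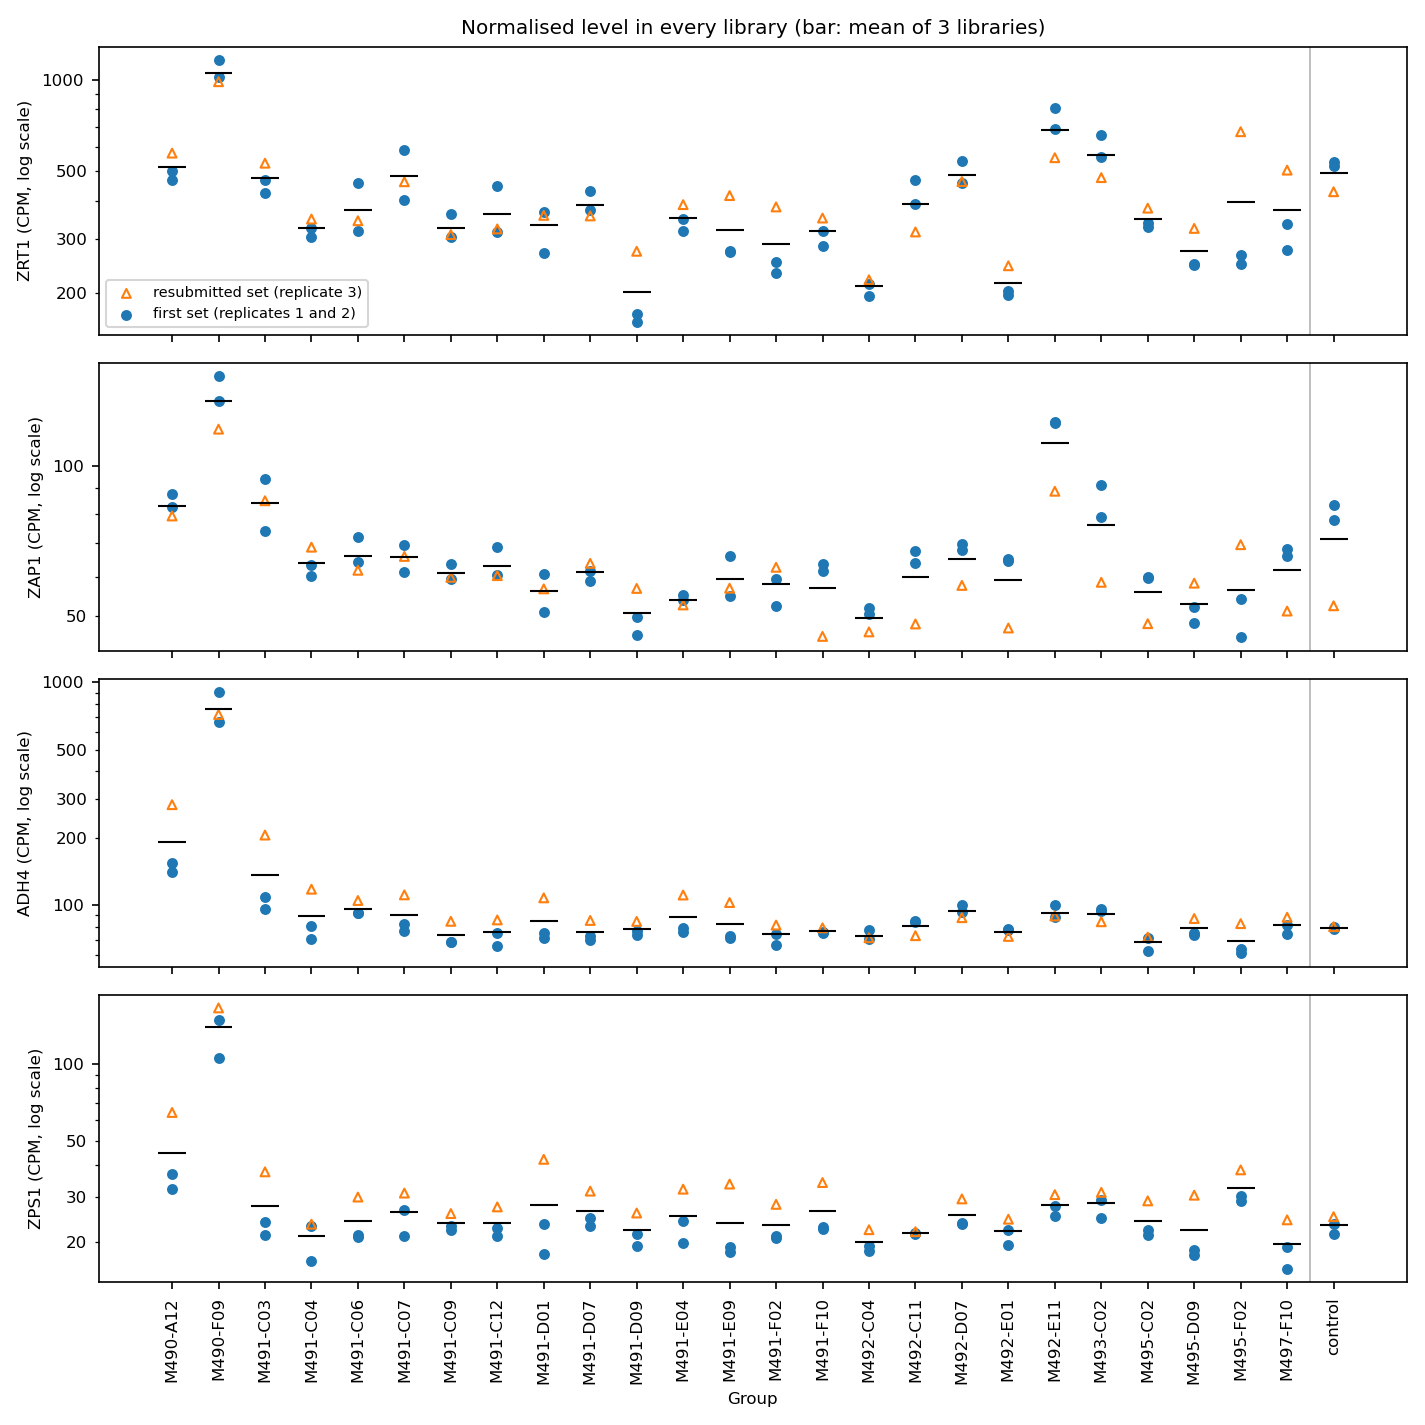
Normalised level in CPM (log scale) of ZRT1, ZAP1, ADH4 and ZPS1 in each of the 78 libraries, by group, with circles for the first set, triangles for the resubmitted set and bars for the mean of 3 libraries; the control is at the right. M490-F09 is the highest group in each panel, M492-E11 is next for ZRT1 and ZAP1, and M490-A12 is next for ADH4 and ZPS1.

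Outside these 2 clones, the zinc genes were more often lower than higher when each clone was set against the control. Of the 230 pairs of a member and a clone, 3 were higher (1.3%) and 31 lower (13.5%) at an adjusted p below 0.05 in edgeR's quasi-likelihood test with Benjamini-Hochberg adjustment over all 5212 genes. Over all genes and the same 23 clones, 5.49% of pairs were higher and 4.39% lower. The median log2 difference of the members' pairs was -0.16, beside -0.0013 over all genes, and the median over the members was below 0 in 21 of the 23 clones. Without the library set term 2 pairs were higher and 11 lower: ZRT3 in 6 clones, ZRT1 in 4 and ZRC1 in 1.

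Each clone was also set against the mean of the other groups instead of the 3 control libraries. For each gene these differences sum to about 0 over the 24 groups, so higher and lower calls tend to balance. This comparison therefore cannot show whether the clones together lay below the control. In that comparison 18 pairs were higher (7.83%) and 15 lower (6.52%), beside 6.7% and 6.03% over all genes. In the order of group means the control stood high for 8 of the 10 genes, as given above. For the 23 clones averaged and set against the control, no member was higher by edgeR (3.13% of genes were), nor at an unadjusted p below 0.05 or by DESeq2 (0 members each), and 2 were lower (2.26% of genes were), ZRT3 by -0.22 (SE 0.0473, adjusted p = 0.00259) and ZRT1 by -0.50 (SE 0.149, adjusted p = 0.0326); leaving out any 1 control library left 1 of these calls. Differences among the 24 groups without M490-F09 and M490-A12 passed edgeR's F test for 9 members, IZH2 being the exception (adjusted p = 0.212), but 80.8% of all genes passed it too.

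**Figure D3:**
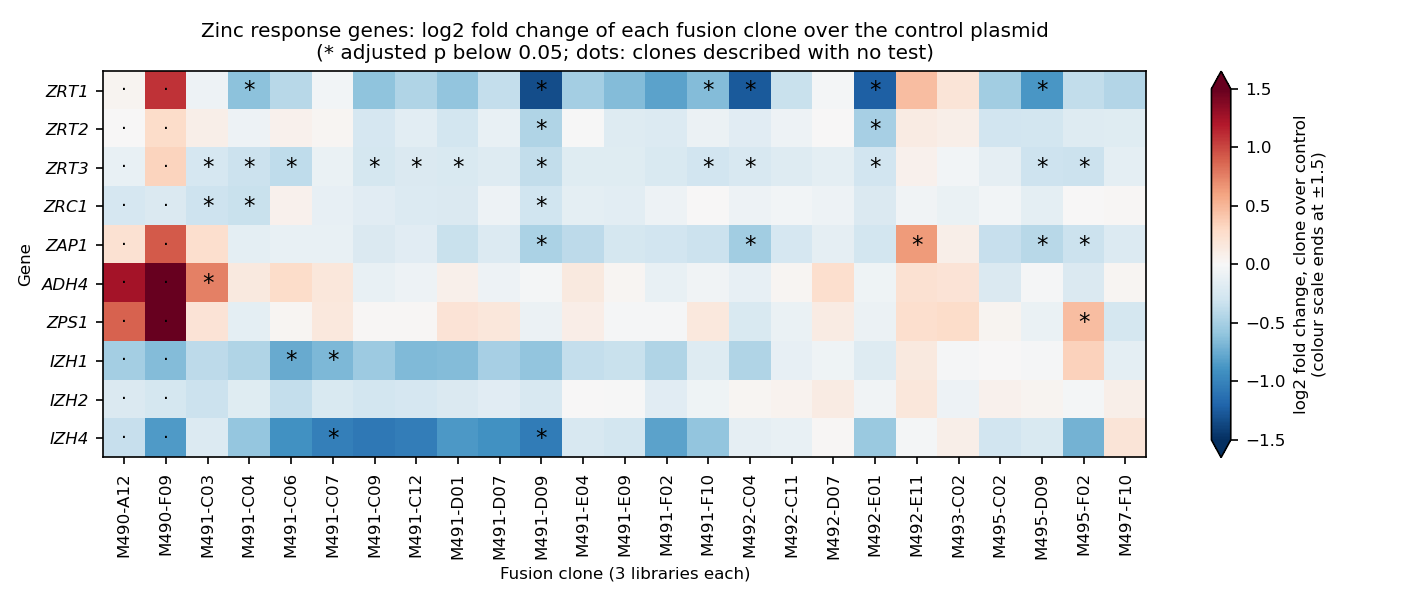
Log2 fold change of each clone over the control for the 10 genes, with colours ending at ±1.5, stars for pairs at an adjusted p below 0.05 and dots for the 2 clones described with no test. Most cells of every gene except ADH4 and ZPS1 are on the lower side, and ZRT3 carries 12 stars and ZRT1 carries 6. The 3 higher calls are ZAP1 in M492-E11, ADH4 in M491-C03 and ZPS1 in M495-F02.

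Among the importers, ZRT1 varied most. Across the 24 groups without M490-F09 and M490-A12, its group means spread between 201.2 CPM in M491-D09 and 684.3 CPM in M492-E11, a 3.40-fold range. It was lower than the control in 6 clones. In M491-D09 it had 169.7, 160.6 and 273.3 CPM, against 536.4, 522.6 and 428.7 CPM in the control (log2 -1.33, SE 0.221, adjusted p = 2.46e-05 by edgeR). In M492-C04 it had 212.6, 195.1 and 220.3 CPM, against the same control values (log2 -1.25, SE 0.221, adjusted p = 3.62e-05 by edgeR). All 6 of these libraries were below every control library.

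M492-E01 followed with 202.1, 195.8 and 244.9 CPM of ZRT1 (log2 -1.23, adjusted p = 0.000249 by edgeR). The first 2 of these libraries are those named for another clone. The resubmitted library gave a log2 difference of -0.81 from the control's resubmitted library, and those 2 gave -1.41 from the control's first set. M495-D09, M491-F10 and M491-C04 were lower by smaller amounts, with log2 differences of -0.88, -0.65 and -0.61. In the order of group means M495-D09 came next above M492-E01, and the libraries of these neighbours did not overlap. The calls in M491-F10 and M491-C04 were lost without any 1 of their libraries except control replicate 3, and without control replicate 1 or 2 ZRT1 was lower in 4 clones.

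A single library moved the ZRT1 result. M495-F02 had 675.2 CPM of ZRT1 in its resubmitted library and 266.2 and 248.8 CPM in replicates 1 and 2, and did not pass the test. Without that library ZRT1 was lower in 11 clones in place of 6, and over all members 53 pairs were lower in place of 31.

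ZRT2, the low-affinity importer, was lower in M492-E01 with 173.5, 165.2 and 137.5 CPM, against 245.9, 248.6 and 178.8 CPM in the control (log2 -0.49, SE 0.111, adjusted p = 0.00409 by edgeR). It was also lower in M491-D09 with 176.8, 167.1 and 146.1 CPM (log2 -0.45, SE 0.111, adjusted p = 0.0042 by edgeR). These 2 clones, both among those with the lowest ZRT1, were those called for ZRT2. Without the library set term both calls were lost (adjusted p = 0.121 in M491-D09 and 0.17 in M492-E01 by edgeR), and in the first set alone 13 clones were lower. Neither clone overlapped the control, although control replicate 3 at 178.8 CPM was close to the highest clone library.

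Of the vacuolar transporters, ZRT3 was lower in 12 clones, the most of any member, but by small amounts. The largest difference was in M491-C06, with 143.3, 137.7 and 142.8 CPM, against 172.1, 177.2 and 203.9 CPM in the control (log2 -0.38, SE 0.0673, adjusted p = 2.04e-05 by edgeR). M491-D09 had 130.5, 145.2 and 153.6 CPM (log2 -0.37, SE 0.067, adjusted p = 0.000128 by edgeR). In all 12 clones the libraries were below every control library, and the other 10 log2 differences lay between -0.32 and -0.22. Control replicate 3 was the highest of the 3 control libraries, and without it 6 of the clones were called; against the mean of the other groups, 3 clones were lower and 2 higher.

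ZRC1, which works in the opposite direction at the vacuole, was lower in 3 clones. In M491-C04 it had 177.8, 182.5 and 184.3 CPM, against 219.9, 215.1 and 253.6 CPM in the control (log2 -0.34, SE 0.0892, adjusted p = 0.00654 by edgeR). In M491-C03 it had 184.5, 178.3 and 190.5 CPM (log2 -0.31, SE 0.0889, adjusted p = 0.0128 by edgeR), and M491-D09 was the remaining clone (log2 -0.30). The clone libraries did not overlap the control in these cases, but none of the 3 calls was kept without control replicate 3.

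ZAP1 was higher in M492-E11 and lower in 4 clones. M492-E11 had 121.5, 121.9 and 88.85 CPM, against 77.74, 83.52 and 52.48 CPM in the control (log2 0.64, SE 0.134, adjusted p = 0.00328 by edgeR). All 3 values were above the control, and the log2 difference was 0.76 within the resubmitted set and 0.59 within the first one, but the call was lost without M492-E11 replicate 1 or control replicate 3. Against the other groups the same clone was higher by 0.86 (adjusted p = 6.99e-11 by edgeR).

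In M492-C04 the activator gene had 50.55, 51.95 and 46.54 CPM, below every control library (log2 -0.52, SE 0.138, adjusted p = 0.0113 by edgeR). In M491-D09 it had 49.83, 45.8 and 56.84 CPM, which overlapped control replicate 3 (log2 -0.47, SE 0.137, adjusted p = 0.0152 by edgeR). M495-D09 and M495-F02 also passed and also overlapped the control. In the resubmitted set the direction turned in 3 of the 4 clones: the log2 difference was 0.11 in M491-D09, 0.15 in M495-D09 and 0.40 in M495-F02, against -0.75, -0.68 and -0.70 in the first set. All 4 lower calls of ZAP1 were lost without the library set term, without control replicate 1 or without control replicate 2, and 8 clones were lower without control replicate 3. The control had 52.48 CPM in the resubmitted set and 77.74 and 83.52 CPM in the first set, which were thus far apart for this gene.

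ADH4 and ZPS1 were each higher in 1 of the 23 tested clones. ADH4 had 109, 96.54 and 206.5 CPM in M491-C03, against 78.08, 79.89 and 80.07 CPM in the control (log2 0.76, SE 0.159, adjusted p = 0.000737 by edgeR). The resubmitted library was the highest, and without it the adjusted p was 0.0747. By their library names M491-C03, M490-A12 and M490-F09, the 3 clones with the highest ADH4, stood in neighbouring plate positions in both sets; whether position had a part in the result was not tested.

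ZPS1 had 30.34, 29.1 and 38.42 CPM in M495-F02, against 23.53, 21.57 and 25.22 CPM in the control (log2 0.46, SE 0.141, adjusted p = 0.005 by edgeR). The libraries did not overlap, and the call was kept without any 1 of the 6 libraries, but it was lost without the library set term (adjusted p = 0.147 by edgeR). M495-F02 is a clone in which 25.6% of all genes were higher and 24.7% lower than the control.

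IZH1 and IZH4 were each lower in 2 clones, and these counts moved with the libraries and terms used. Without M495-F02 replicate 3, IZH1 was lower in 5 clones and IZH4 in 8. In the first set alone, IZH1, IZH2 and IZH4 were lower in 8, 3 and 12 clones. Without the library set term each of the 3 genes was lower in 0 clones. IZH1 had 39.01, 36.16 and 41.02 CPM in M491-C06, against 51.74, 48.69 and 106.5 CPM in the control (log2 -0.75, SE 0.229, adjusted p = 0.014 by edgeR). In M491-C07 it had 40.64, 39.15 and 42.98 CPM (log2 -0.67, SE 0.228, adjusted p = 0.0244 by edgeR). Both clones lay below every control library, and the control's own libraries were further from each other than the clones were from the lowest of them.

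IZH4 had 14.94, 11.52 and 12.43 CPM in M491-D09, against 24, 22.3 and 35.28 CPM in the control (log2 -1.05, SE 0.359, adjusted p = 0.0415 by edgeR). In M491-C07 it had 14.77, 13.12 and 11.5 CPM (log2 -1.03, SE 0.363, adjusted p = 0.0314 by edgeR). Neither IZH4 call was kept without control replicate 1 or without control replicate 3, and neither IZH1 call without control replicate 3. With all libraries IZH2 passed in 0 clones by edgeR, also at an unadjusted p below 0.05, and in 0 by DESeq2 (1 clone lower at an unadjusted p). Its log2 differences lay between -0.36 and 0.17.

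M491-D09, the clone with the lowest ZRT1 mean, also had the most lower calls. It had 6 members lower (4.49% of all genes were lower in that clone), namely ZRT1, ZRT2, ZRT3, ZRC1, ZAP1 and IZH4, and leaving out any 1 of its own or the control's libraries left 4. Without the library set term 2 of the 6 were kept, ZRT1 and ZRT3. M492-E01 had 3 members lower beside 0.902% of genes, M492-C04 had 3 beside 4.09%, M495-D09 had 3 beside 5.41% and M491-C04 had 3 beside 6.93%. In 9 clones no member passed, and in the other 9 clones 1 to 3 passed.

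M492-E11 was the clone furthest on the other side. Its ZRT1 libraries, at 809, 689.4 and 554.7 CPM, were all above the 3 control libraries, but the log2 difference of 0.47 did not pass edgeR's test (adjusted p = 0.539). Only ZAP1 was called higher than the control there, beside 0.691% of genes. Against the mean of the other groups 5 members were higher, beside 7.35% of genes: ZRT1 by 0.99, ZAP1 by 0.86, IZH1 by 0.46, ZRT3 by 0.28 and ZRT2 by 0.26; without M492-E11 replicate 1 or 2 the count was 3. For ADH4 the clone had 88.54, 99.85 and 89.45 CPM, above all control libraries, with a log2 difference of 0.23 that did not pass (adjusted p = 0.787 by edgeR).

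Across groups, ZRT1, ZRT2, ZRT3 and ZAP1 had levels that varied together, as did those of IZH1, IZH2 and IZH4, and the division between the 2 sets was less sharp without M490-F09 and M490-A12. The Pearson correlations of group means on the log2 CPM scale lay between 0.64 and 0.89 for the 6 pairs of those 4 genes over 26 groups, and between 0.50 and 0.83 over the 24 groups without M490-F09 and M490-A12. For the 3 pairs of IZH genes they lay between 0.58 and 0.81 over 26 groups. Between the sets they lay between -0.17 and 0.28 over 26 groups and between 0.02 and 0.58 over 24, where ZRT3 correlated with IZH1, IZH2 and IZH4 at 0.42, 0.52 and 0.58, about as high as with ZRT2 (0.50). ADH4 and ZPS1 correlated at 0.93 over 26 groups but at 0.20 over 24, so that pattern rests on M490-F09 and M490-A12. Over the 24 groups ADH4 correlated with ZRT2 at 0.67, with ZAP1 at 0.63, with ZRT1 at 0.52 and with ZRT3 at 0.13, and ZPS1 with ZRT1 at 0.56, with ZAP1 at 0.40, with ZRT2 at 0.36 and with ZRT3 at 0.22. All genes of a group come from the same 3 libraries, and these values are given as descriptions. The means were adjusted for library set and not for row of the resubmitted plate. Its libraries differed from the first set by a median log2 of 0.13 in row A and 0.94 in rows B and C for IZH1. The same values were -0.17 and 0.59 for IZH2, -0.56 and 0.44 for IZH4, and 0.0048 and 0.20 for ZRT3. They were 0.04 and 0.20 for ZRT1, -0.27 and -0.31 for ZRT2, and -0.01 and -0.35 for ZAP1. Whether plate row had a part in these correlations was not tested.

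**Figure D4:**
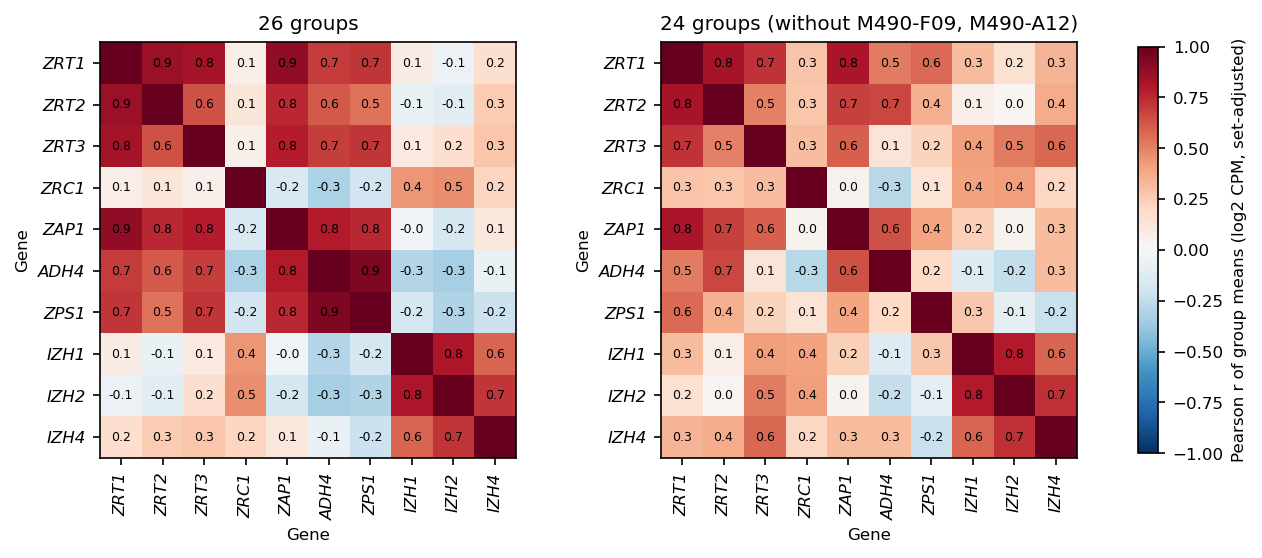
Pearson correlation of the group means (log2 CPM, adjusted for library set and not for plate row) for every pair of the 10 genes, over 26 groups (left) and over the 24 groups without M490-F09 and M490-A12 (right). The block of ZRT1, ZRT2, ZRT3 and ZAP1 and the block of IZH1, IZH2 and IZH4 hold 0.50 or more in both panels, the cells between ZRT3 and the IZH genes reach 0.42 to 0.58 in the right panel, and the cell of ADH4 and ZPS1 falls to 0.20 there.

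M490-F09 and M492-E11 were the 2 highest groups for both ZRT1 and ZAP1, but ADH4 in M492-E11 was near the control. ZRT1 and ZAP1 correlated at 0.89 over 26 groups and at 0.81 over 24. M492-E11, next to M490-F09 for both of them, had an ADH4 mean of 92.6 ± 6.28 CPM, against 79.35 ± 1.10 CPM in the control.

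**Figure D5:**
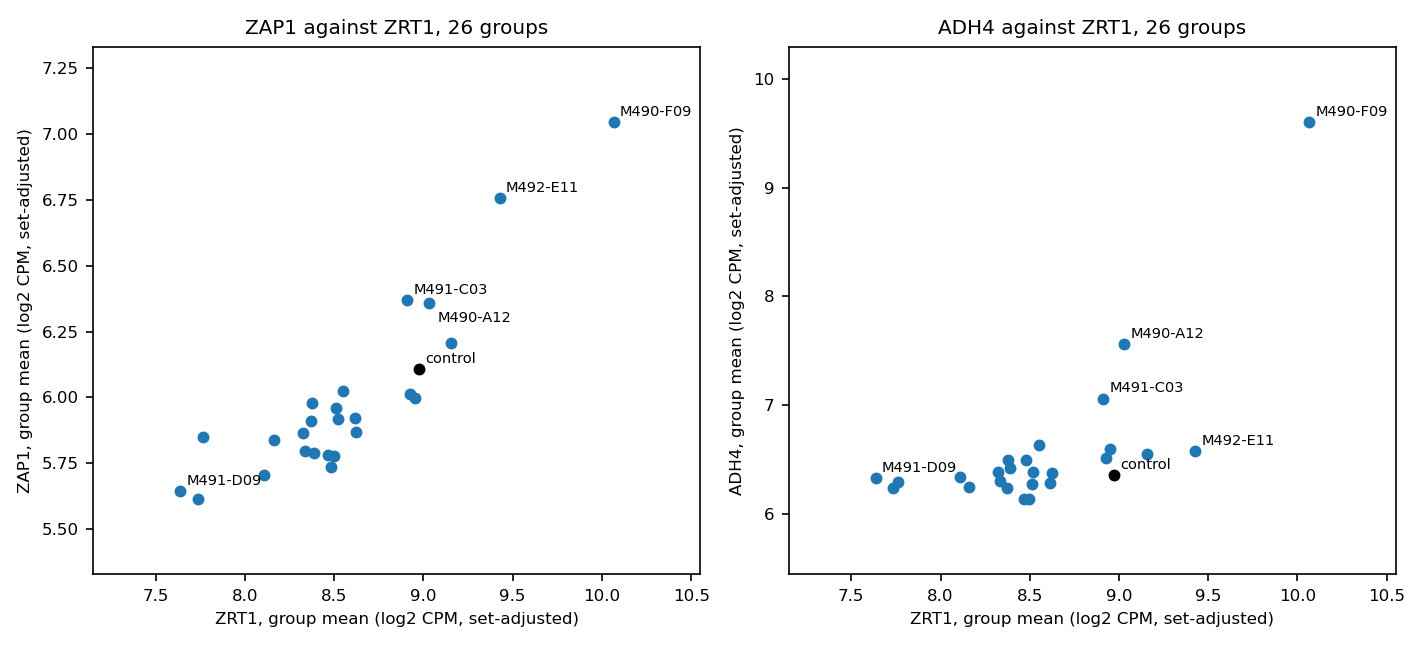
Group means of ZAP1 (left) and ADH4 (right) against ZRT1 in log2 CPM adjusted for library set, 1 point per group, with the control in black. ZAP1 follows ZRT1 from M491-D09 up to M490-F09, whereas ADH4 stays near the control level in M492-E11 and is high in M490-F09, M490-A12 and M491-C03.

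Among 4980 other genes with a mean of at least 10 CPM, those whose group means were most like ZRT1 over the 26 groups were RTC4 (r = 0.70), LOG1 (0.67), ECM32, a helicase gene (0.65), FUS1, a cell fusion gene of mating (0.63) and PAR32 (0.62). LOG1 is the divergent neighbour of ZAP1 named above, and RTC4 is itself on the list of other genes reported to answer to Zap1. Most like ADH4 were FRE1, a plasma membrane metal reductase gene (0.75), CTR1 (0.72), RTC4 (0.70), LOG1 (0.67) and ZIP1, a meiotic chromosome pairing gene (0.66), and most like ZPS1 were FRE1 (0.81), RTC4 (0.80), CTR1 (0.79), ICP55 (0.68) and FRE7 (0.67). These rankings include M490-F09 and M490-A12, the clones known when the set was proposed. Without M490-F09 and M490-A12 the values for ADH4 with FRE1 and CTR1 were -0.08 and -0.19. With RTC4, LOG1 and ZIP1 they were 0.29, 0.62 and 0.30. For ZRT1 they became 0.52 with RTC4, 0.52 with LOG1, 0.77 with ECM32, 0.48 with FUS1 and 0.45 with PAR32. For ZPS1 they became 0.48 with FRE1, 0.725 with RTC4, 0.50 with CTR1, 0.52 with ICP55 and 0.52 with FRE7. CTR1, the high-affinity copper importer, averaged 123.5 ± 7.06 CPM in M490-F09 and 130.1 ± 2.71 CPM in M490-A12, and 66.5 ± 3.16 CPM in control cells (SD, 3 libraries per group).

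Other genes reported to be raised by Zap1 or in zinc shortage differed less in M490-F09 than ADH4 and ZPS1 did. Of 17 such genes 13 were measured, and RTC4 alone lay above all control libraries, as did 10.2% of all genes. RTC4 had 60.9 ± 8.33 CPM in M490-F09 and 38.4 ± 4.70 CPM in the control (log2 0.68). The next by size were TSA1, a peroxiredoxin gene (log2 0.29), EKI1, an ethanolamine kinase gene (-0.22), and URA10, an orotate phosphoribosyltransferase gene (0.22), all of which overlapped the control. The mean of M490-F09 was the highest of the 26 groups for RTC4, FET4, MNT2 and DPP1, and not for the other measured genes of this list. Over the 23 tested clones, 20 of 299 pairs were higher (6.69%) and 25 lower (8.36%), beside the 5.49% and 4.39% of all pairs, and the median log2 difference was -0.02. Of those 25, 8 were FET4, the low-affinity iron transporter gene that also carries zinc. The control ranked 2 of 26 groups for FET4, and against the other groups FET4 was higher in 0 clones and lower in 2. Without the library set term 7 pairs of this list were higher and 6 lower, and in the first set alone 44 were higher and 72 lower.

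Of 6 genes reported to be lower in zinc shortage, 5 were measured, and each overlapped the control in M490-F09; CHO1, for phosphatidylserine synthase, differed most (log2 -0.40), followed by PSD1 (-0.19), CHO2 (-0.09) and ADH3 (-0.07). Over the tested clones 3 of their 115 pairs were higher (2.61%) and 15 lower (13%), beside 5.49% and 4.39% of all pairs, with a median log2 difference of -0.04. Of the 15, 7 were CHO1 and 8 PSD1, and without the library set term 2 pairs of the list were lower. The control ranked 2 of 26 groups for CHO1 and 6 for PSD1; against the other groups CHO1 was higher in 2 clones and lower in 2, and PSD1 higher in 3 and lower in 2. Of 4 other zinc handling genes 3 were measured: in M490-F09 IZH3 lay below all control libraries (log2 -0.29), MSC2 above (0.17), and COT1 overlapped (-0.22). IZH3, the fourth gene of the IZH family, was lower in 11 of the 23 clones, and COT1, a second vacuolar transporter gene, was lower in 5; the 3 genes together were lower in 16 of 69 pairs (23.2%), beside 4.39% of all pairs. The control ranked 1 of 26 groups for IZH3 and 2 for COT1, and against the other groups IZH3 was higher in 6 clones and lower in 3, and COT1 was higher in 1 and lower in 1. Such counts against the other groups tend to balance, as described above, and do not show whether the clones lay below the control. Without the library set term IZH3 was lower in 9 clones and FET4 in 2, and in the first set alone they were lower in 15 and 21. With plate rows as batches FET4 was lower in 14 clones.

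ADH4 and ZRT1 are neighbours on chromosome VII, and 4 of the 5 listed genes beside them were measured. In M490-F09 HXK2 lay above all control libraries (log2 0.40), while FZF1 (-0.15), MNT2 (0.12) and YPS5 (-0.11) overlapped them. None of the 4 differed by as much as ADH4 or ZRT1 did.

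Promoter matches outside the 10 genes went with small differences in M490-F09. The 94 other measured genes with a match of at most 1 mismatch had a median log2 difference of 0.05, beside 0.0045 over all genes. Of them 19 lay above all control libraries (20.2%, beside 10.2% of all genes) and 2 lay below. This is a description of a clone from which the set was proposed, and no test was made.

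The library sets and plate rows moved several members. Over all groups, 7 members were higher in the resubmitted set and 2 were lower by edgeR, beside 41.4% and 43.2% of all genes. ZPS1 was higher in the resubmitted library in all 26 groups (log2 0.44), IZH1 in 24 (0.62), while ZRT2 (-0.25) and ZAP1 (-0.13) were lower. The resubmitted libraries of 12 groups were in row A of their plate and those of 14 groups, the control among them, in rows B and C. The median log2 difference of the resubmitted library from the first set was -0.56 in row A and 0.44 in rows B and C for IZH4, 0.13 and 0.94 for IZH1, and 0.40 and 0.05 for ADH4. The clones with lower IZH1, IZH4 and ZRC1 were all of row A. With plate rows fitted as separate batches, 30 of the 34 called pairs were kept, and both IZH4 calls were among the 4 lost. That fit also called pairs outside the 34: IZH1 was lower in 4 clones and higher in 1, ZAP1 was lower in 6 and IZH4 in 1. M490-F09 and M490-A12 are both of row A. With plate rows as batches the log2 differences of IZH1, IZH2 and IZH4 were -0.38, -0.05 and -0.55 in M490-F09 and -0.22, 0.01 and -0.01 in M490-A12, whereas that of ADH4 was 3.16 in M490-F09 and 1.11 in M490-A12.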

How the data were processed

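RNA-seq libraries of 25 clones and 1 control, 3 per group, were analysed. The deposited files hold raw counts per gene that the authors did not normalise. Per the submitters' processing notes, fastp 0.23.1, STAR 2.5.2b and featureCounts (Subread 1.5.2) were used with genome build R64, and per the design text reads were deduplicated by their molecular identifiers. Per the file headers, genes lie on contigs of another assembly, and their coordinates were not used. Coordinates and sequences were read from RefSeq's R64 by its own annotation. All 10 members had 1 row each, of the same coding length as in R64. Rows without a gene name and UNDEF rows, with medians of 0.886% and 2.36% of counts, were left out.

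The count test was the quasi-likelihood test of edgeR 4.0.16 (R 4.3.3), with TMM and filterByExpr by group. A single fit held all 78 libraries with group and library set as terms (51 residual degrees of freedom). Of the genes 5212 passed the filter and 17 did not, and p-values were adjusted by Benjamini and Hochberg over all of them. Contrasts were each clone against the control, each clone against the other 23 groups averaged, the mean of 23 clones against the control, an F test over 24 groups, and the library sets. SE is that of the log2 fold change. CPM are normalised with TMM, and log2 CPM for correlations used a prior count of 2. The members and gene lists were chosen with earlier results of these data known. For each member, up to 2 called clones on each side with the largest change are given in full; of each other list, up to 4 genes in M490-F09; and 5 genes most like ZRT1, ADH4 and ZPS1. Precision follows from the library totals given above and from 3 libraries per group. Alternatives were RLE size factors, no filter, a replicate block, no library set term, DESeq2 1.42.0, the first set alone, plate rows as batches, and each library left out, with the trended dispersion of the full fit kept. The clone M492-E01 was not counted in an alternative added after seeing the data.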

Additional observations from a re-analysis of the deposited data

Results flagged for a closer look

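For 5 of the 54 pairs of a member and a clone examined, the difference from the control had opposite signs in the libraries of the resubmitted set and of the first set. The value given is the log2 fold change in the resubmitted set minus that in the first set, and the difference was not tested. It was 0.55 for ZRT1 and 0.39 for ZRT2 in M490-A12. For ZAP1 it was 0.87 in M491-D09, 0.83 in M495-D09 and 1.10 in M495-F02, which are 3 of the 4 clones in which ZAP1 was called lower. The control's ZAP1 level was 52.48 CPM in the resubmitted set and 77.74 and 83.52 CPM in the first set, and the same control libraries enter all 3 values.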

How the results depend on the processing

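RLE size factors, no filter, DESeq2 and the replicate block lost no call among the 34 called pairs, but some of them added calls. By DESeq2 ZRT1 was lower in 7 clones in place of 6, ZRT3 in 13 in place of 12, IZH1 in 5 in place of 2 and IZH4 in 3 in place of 2. With RLE size factors or no filter IZH1 was lower in 3 clones. With the replicate block, 3 pairs were higher and 31 lower, as without it. Within the first set, the median correlation of deviations from group means was 0.555 between libraries numbered 1 and 0.552 between those numbered 2. Between numbers 1 and 2 it was 0.552. The set effect was not removed from these deviations, so a small pairing by number might not be seen. Against the control, pairs called higher numbered 7 in the first set alone, and pairs called lower numbered 11 with no library set term and 90 in the first set alone, which has fewer libraries. Against the other groups, higher pairs numbered 8 with no set term and 42 in the first set, and lower pairs 5 and 46. For the mean of the clones, lower members numbered 1 with no set term and 6 in the first set. Members lower with no set term numbered 2 in M491-D09, 1 in M492-C04 and 1 in M492-E01; in the first set alone they numbered 5 in M492-C04, 6 in M492-E01 and 5 in M495-D09. Members higher in M492-E11 than in the other groups numbered 3 with no set term and 9 in the first set. The cause was not tested. Leaving out 1 library at a time, pairs against the control were 2 to 4 higher and 23 to 53 lower; against the other groups they were 14 to 21 higher and 13 to 21 lower. Members for the mean of the clones were 0 higher and 1 to 2 lower, those differing among groups 9, and those between sets 5 to 8 higher and 2 lower. Members lower were 4 in M491-D09, 2 in M491-C04, 2 to 3 in M492-C04, 2 to 3 in M492-E01 and 2 to 4 in M495-D09, and members higher in M492-E11 were 3 to 4. Without M492-E01, 28 pairs were lower. Of the 34 called pairs, 6 passed under every alternative and without each library: ZRT1 in M491-D09, M492-C04 and M492-E01, and ZRT3 in M491-C06, M491-D09 and M495-F02.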
